A study of Rattus norvegicus with 24 samples.

Results

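The common training response is the average difference between the trained and the contralateral tibialis anterior over animals at all lengths of daily resistance training. A pooled call does not require the change at every length. This average was taken from all 12 trained left muscles and all 12 contralateral right muscles, paired by animal, with the time points pooled. It uses 24 of the 24 samples of the series. The animals were adult male Wistar rats, 3 each with 2, 10, 20 or 30 days of training, and the left and right muscle of an animal carry the same animal number in the labels. Once a day an implanted pulse generator drove the dorsiflexors of the left hind limb through the common peroneal nerve while the current spilled over to the tibial nerve, so that the plantarflexors resisted the contraction. The right muscle of the same animal had no stimulation and is the only control here. Muscles were frozen about an hour after the last session, so a difference can be an answer to that session, a lasting change from all sessions, or both, and these cannot be told apart. The trained muscle was also always the left one, on the side of the electrodes, so training, limb side and surgery cannot be told apart, and animals with sham surgery were not analysed here.

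Skeletal muscle answers a bout of loaded contractions with a short burst of immediate early genes, many of them for transcription factors, whose transcription needs no prior protein synthesis, followed by stress proteins that hold the contractile apparatus together. Repeated loading adds growth of the fibers, remodelling of the matrix around them, and slower shifts in contractile proteins and in the enzymes of energy supply. The tibialis anterior of the rat is a fast muscle, rich in glycolytic fibers that store glycogen and buffer calcium with parvalbumin.

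Poly-A RNA was sequenced, and the values are length-scaled transcript abundances that add up to between 634430.6 and 634431.0 in every sample. They keep no record of sequencing depth, so the counting error behind each value is unknown. Values were rescaled between samples, which changed them by factors between 0.778 and 1.14, and all levels below are rescaled values. Of 20027 transcripts, 13452 reached a value of 1 in 3 or more muscles and were tested, 353 of them only through trained and 98 only through contralateral muscles (all muscles of the other arm below 1). Transcripts of the mitochondrial genome made up 28.1% to 44.2% of the deposited values in contralateral and 23.7% to 44.6% in trained muscles, and the contralateral muscle with the highest share belongs to animal 267, which is one of the animals left out in turn.

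The trained muscle differed from its partner in 4472 transcripts at an adjusted p below 0.05 (limma, animal as a block, Benjamini-Hochberg over all transcripts tested), which is 33.2% of those tested. Of these 2224 (16.5%) were higher and 2248 (16.7%) were lower in the trained muscle, and they belong to 4154 genes. Large rises outnumbered large falls: 294 transcripts rose by at least 1 on the log2 scale and 58 fell by at least 1. The 353 transcripts tested only through trained muscles could hardly fall, and the 98 tested only through contralateral muscles could hardly rise. They were kept in these and all later counts over tested transcripts. Among transcripts with a mean of at least 10, 613 rose and 1095 fell. The median difference over all tested transcripts was -0.023. Fold changes are on the scale of log2(value + 1), which understates the change of transcripts with low values.

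**Figure D1:**
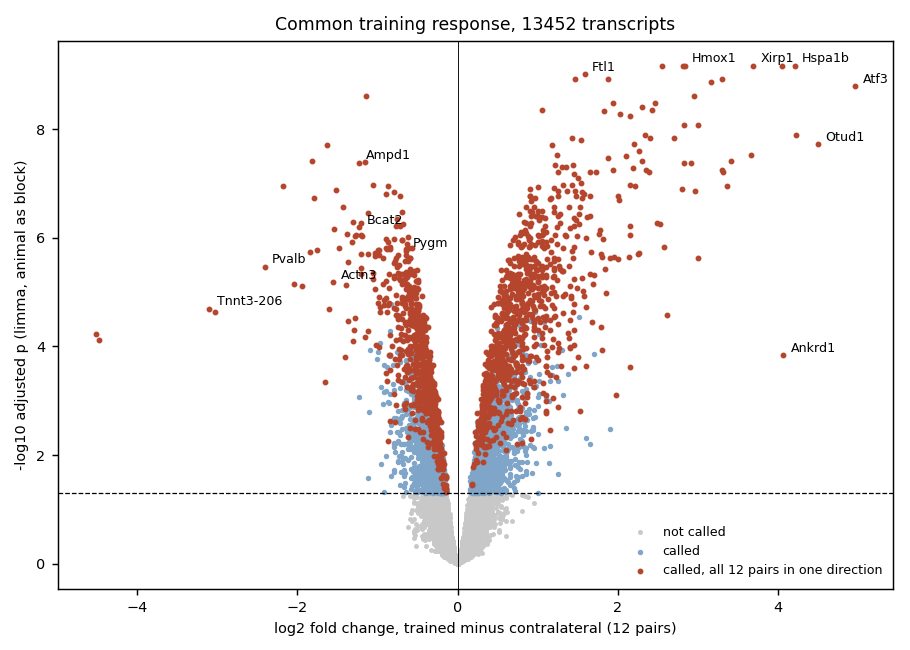
Log2 fold change of the trained against the contralateral muscle (x axis) and -log10 of the adjusted p (y axis) for the 13452 transcripts tested, 12 pairs of muscles, with the dashed line at an adjusted p of 0.05. Points in red are the 1689 called transcripts whose 12 pairs all moved in the same direction; the rises reach 4.97, and apart from Myh4-203 and Myh4-204, at -4.48 and -4.52, the falls end at -3.10.

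Many of these changes were present in every animal. In 952 transcripts (7.08% of those tested) all 12 trained muscles were higher than their partners and the change was called, and in 737 (5.48%) all 12 were lower. In 1 further transcript the 12 pairs moved in the same direction without passing the test. For 463 transcripts (3.44%) the 12 trained and the 12 contralateral values did not overlap at all, 324 with the trained values above and 139 with them below.

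Among transcripts whose mean reached 50 in one of the arms, the largest rise was that of Atf3 (chr13:109817895-109849633, minus strand, Rnor_6.0), a stress-induced transcription factor. Its contralateral values lay between 1.28 and 12.1 with a median of 5.19, and its trained values between 34.7 and 462 with a median of 180. The lowest trained muscle was above the highest contralateral muscle, and the log2 fold change was 4.97 (SE 0.23, n = 12 pairs, adjusted p = 1.60e-09). Otud1, a deubiquitinase gene, followed with 1.32 to 6.26 (median 2.74) in contralateral and 17.8 to 255 (median 102) in trained muscles, a log2 fold change of 4.50 (SE 0.26). Next came Nr4a3 at 4.23 (SE 0.24), Hspa1b at 4.21 (SE 0.17), Ankrd1 at 4.07 (SE 0.62) and Egr1 at 4.05 (SE 0.16). The other genes of the 15 largest rises were Xirp1, Mustn1, Csrp3, Fos, Hspb7, Tnfrsf12a, S100a4, LOC108348108 and Klhl40, with log2 fold changes from 3.69 down to 2.49. All but LOC108348108, which is named only by a locus number, had trained values wholly above the contralateral ones.

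The falls given next are limited to 1 transcript per gene and a mean of 50 in one of the arms, and Myh4-203 and Myh4-204, which fell further, are given with the isoforms. Tnnt3-206, a transcript of fast troponin T, went from 566 to 1951.6 (median 1255.8) in contralateral to 34.1 to 728 (median 97.9) in trained muscles, a log2 fold change of -3.10 (SE 0.38, adjusted p = 2.01e-05); the ranges overlapped although all 12 pairs fell. Pvalb (chr7:119429019-119441488, minus strand, Rnor_6.0), which encodes the calcium buffer parvalbumin, fell from between 1913.5 and 2947.1 to between 124 and 1470.9, with a log2 fold change of -2.41 (SE 0.24, adjusted p = 3.42e-06). Its groups did not overlap. Atp1b2, a subunit of the sodium pump, fell by 1.75 on the log2 scale, Actn3, the alpha-actinin of fast fibers, by 1.55, and Mylk2, the skeletal myosin light chain kinase, by 1.37. The others of the 15 largest falls were Gpcpd1, Gpd1, Ampd1, Glul, Calm2, Phkb, Jph2, Sar1b, Phkg1 and Slc37a4, from -1.31 to -0.98.

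**Figure D2:**
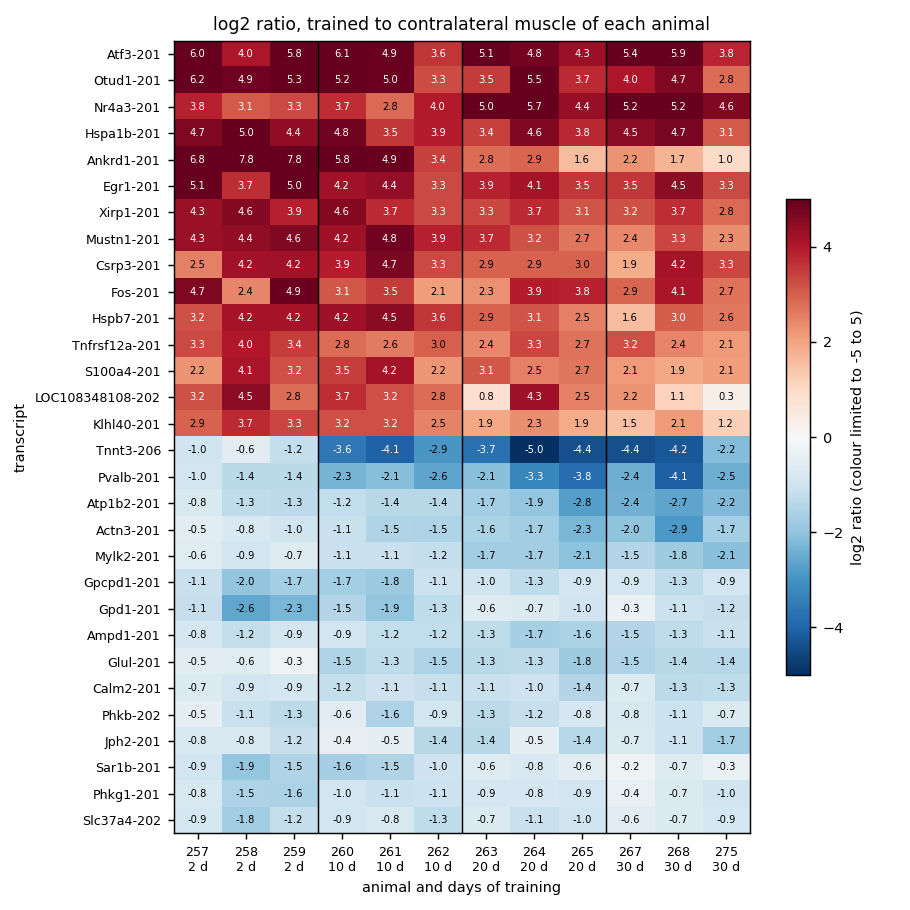
Log2 ratio of the trained to the contralateral muscle in each of 12 animals (columns, by days of training) for the 15 transcripts with the largest rises and the 15 with the largest falls among those with 12 of 12 pairs in the same direction, a mean of 50 or more in one of the arms and 1 transcript per gene, so that Myh4-203 and Myh4-204 are not shown (rows). Each cell gives its ratio; Atf3 lies between 3.58 and 6.14 in every animal, while Ankrd1 runs from 7.83 at most to 0.96 at least.

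Most immediate early genes rose. The list of AP-1 factors, activating transcription factors and other immediate early genes has 29 genes, of which 27 were tested, 4 of them through the trained muscles alone. Of these, 23 rose and 0 fell, 21 of them in 12 of 12 pairs, with a median log2 fold change of 1.44; over all 11105 genes tested, with 1 transcript each, 18.0% rose, 17.9% fell and the median was -0.02. A member tested through the trained muscles alone could hardly fall, and beside the lists where their number is given there was 1 such member each in the mechanical load, matrix, adhesion, glycogen and growth factor lists and 2 in the glycolytic list. Egr1, a zinc finger factor of the early growth response family, had 1.89 to 6.97 (median 4.13) in contralateral and 33.4 to 165 (median 81.9) in trained muscles, and the lowest trained muscle lay well above the highest contralateral one (adjusted p = 6.71e-10). Fos, which pairs with Jun proteins to form AP-1, had 3.49 to 23 and 46.1 to 265, a log2 fold change of 3.37 (SE 0.24, adjusted p = 1.11e-07). Nr4a3, an orphan nuclear receptor, had 0.49 to 5.94 and 23.1 to 78.6. The Jun partners rose less: Junb by 2.16 (SE 0.19), Jund by 1.69 (SE 0.19) and Jun by 0.89 (SE 0.19) on the log2 scale, Jun in 11 of 12 pairs. The members that did not pass were Atf4 (-0.27), Ier3 (0.34), Klf2 (-0.13) and Srf (0.03), the last being the serum response factor that binds the CArG box of many early genes; Srf was at 13.1 to 19.3 in contralateral and 11.4 to 22.8 in trained muscles.

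The bases before the start of 3 of the uniformly risen early genes are shown because they hold motifs tied to such genes. They are the 250 bases before the RefSeq gene start on GRCr8, 5′ to 3′ along the gene, with motif matches in capitals: 2 CArG boxes in Egr1 (chr18:26736828-26737077, plus strand), which begin 105 and 83 bases before the start, and a cyclic AMP response element, TGACGTCA, in Btg2 (chr13:48087691-48087940, minus strand), 201 bases before it, and in Maff (chr7:112792537-112792786, plus strand), 51 bases before it.
Egr1: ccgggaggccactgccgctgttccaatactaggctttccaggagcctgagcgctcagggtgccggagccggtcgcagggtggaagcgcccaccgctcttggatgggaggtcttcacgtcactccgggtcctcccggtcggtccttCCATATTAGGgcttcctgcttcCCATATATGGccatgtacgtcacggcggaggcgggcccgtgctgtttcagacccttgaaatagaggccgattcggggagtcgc
Btg2: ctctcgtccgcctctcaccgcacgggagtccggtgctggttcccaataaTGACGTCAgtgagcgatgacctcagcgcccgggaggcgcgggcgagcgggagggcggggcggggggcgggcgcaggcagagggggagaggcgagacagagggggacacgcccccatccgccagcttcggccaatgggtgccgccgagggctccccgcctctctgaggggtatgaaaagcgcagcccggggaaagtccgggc
Maff: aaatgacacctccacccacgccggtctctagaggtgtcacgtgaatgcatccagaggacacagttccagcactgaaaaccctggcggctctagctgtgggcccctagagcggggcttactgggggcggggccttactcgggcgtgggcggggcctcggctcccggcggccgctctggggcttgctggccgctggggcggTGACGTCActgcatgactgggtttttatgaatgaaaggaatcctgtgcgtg
A promoter sequence was found for 19 of the 29 genes of the list. The CArG box was present in 21.1% of these 19, the cyclic AMP response element in 21.1% and the AP-1 site TGANTCA in 0, against 1.22%, 2.89% and 4.19% of the 8106 tested genes with a promoter, and 1.5%, 1.7% and 6.36% of all 27457 promoters. Matches were taken on both strands within these 250 bases, they show letters and not binding, and Atf3 and Fos, for which the table gave no promoter, could not be looked at.

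Signal terminators and growth arrest genes rose in part. Of 20 genes, all tested and 3 of them through the trained muscles alone, 10 rose, 1 fell and 9 did not pass (median log2 fold change 0.33). Besides Otud1 the largest rises were Dusp2, a phosphatase that switches off MAP kinases, by 2.53 (0 to 0.563 in contralateral and 1.71 to 15.5 in trained muscles, with an effect between 1.49 at 30 days and 3.49 at 10 days), Trib1, a pseudokinase, by 1.94 and Gadd45b, a stress-induced growth arrest gene, by 1.49. Dusp8 was the member that fell, by 0.45.

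Genes of the Z-disc and of mechanical load rose more often than the 18.0% over all genes. Their share of falls was near the 17.9% over all genes. Of 24 genes 22 were tested, 11 rose, 4 fell and 7 did not pass (median 0.53). Xirp1 (chr8:128702133-128711222, minus strand, Rnor_6.0), which encodes an actin-binding protein of sites of fiber strain, had 31.3 to 77.8 (median 40.3) in contralateral and 250 to 889 (median 701) in trained muscles, a log2 fold change of 3.69 (SE 0.15, adjusted p = 6.71e-10). Csrp3, the muscle LIM protein of the Z-disc, rose by 3.42 (SE 0.21), from between 50.2 and 160 to between 368 and 2978.4. Fhl1, another LIM protein, was abundant already in contralateral muscle, at 407 to 721, and reached 1883.3 to 4141.3. For Xirp1, Csrp3 and Fhl1 the groups did not overlap. Flnc, the muscle filamin, rose by 1.68 and Actn2, the alpha-actinin of all fibers, by 1.00, while Actn3 fell from between 3099.3 and 4071.0 to between 431 and 2795.3, so the 2 alpha-actinins of the sarcomere moved in opposite directions. Mustn1, a small nuclear protein of the musculoskeletal system, rose from between 74.0 and 199 to between 663 and 4336.8. Klhl40, which stabilises thin filament proteins, rose by 2.49 (SE 0.21).

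Heat shock proteins rose in a selective way. Of 27 tested members 15 rose and 0 fell, with 12 of the 15 in all pairs and a list median of 0.36. Hspa1b (chr20:4877324-4879780, minus strand, Rnor_6.0), the inducible heat shock protein of the Hsp70 family, had 3.94 to 16.3 (median 8.27) in contralateral and 71.0 to 447 (median 176) in trained muscles; its near-identical neighbor Hspa1a can share reads with it, so the value may stand for both. The small heat shock proteins that protect the Z-disc followed: Hspb7 rose by 3.31 (SE 0.22), from between 83.7 and 166 to between 503 and 2858.3, Cryab, alpha B-crystallin, by 1.86 (SE 0.21), Hspb6 by 1.66 and Hspb1 by 1.40. The Hsp40 co-chaperone Dnajb1 rose by 2.27 (SE 0.21) and Bag3, which hands damaged Z-disc proteins to autophagy, by 0.99 (SE 0.10). Members used in all cells or in mitochondria gave values close to 0, such as Hsp90ab1 (-0.10), Hsph1 (-0.01), Hspd1 (-0.15) and Hspa9 (-0.07). In the endoplasmic reticulum 3 of 18 chaperones rose (Pdia3, Manf and Dnajb9, by 0.24 to 0.43) and 0 fell, with the median at 0.03. With no block for animal or without the 2 day pairs 2 rose and 1 fell, and without the 30 day pairs 4 rose. The medians of these chaperones were 0.34, 0.02, -0.07 and -0.09 at 2, 10, 20 and 30 days, with 6, 0, 1 and 1 genes called.

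The promoters of a co-chaperone, a small heat shock protein and a Z-disc gene are shown for the same reason: Bag3 (chr1:192533210-192533459, plus strand) has an AP-1 site and a heat shock element, GAANNTTC, 194 and 132 bases before the start, Hspb1 (chr12:26432302-26432551, minus strand) has 2 heat shock elements, 129 and 109 bases before it, and Xirp1 (chr8:128635012-128635261, minus strand) has an AP-1 site and a MEF2 site, 208 and 82 bases before it.
Bag3: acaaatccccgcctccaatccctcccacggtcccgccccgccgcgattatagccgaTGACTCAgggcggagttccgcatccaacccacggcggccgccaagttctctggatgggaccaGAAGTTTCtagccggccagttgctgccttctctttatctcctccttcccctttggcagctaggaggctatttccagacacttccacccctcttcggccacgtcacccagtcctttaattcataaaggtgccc
Hspb1: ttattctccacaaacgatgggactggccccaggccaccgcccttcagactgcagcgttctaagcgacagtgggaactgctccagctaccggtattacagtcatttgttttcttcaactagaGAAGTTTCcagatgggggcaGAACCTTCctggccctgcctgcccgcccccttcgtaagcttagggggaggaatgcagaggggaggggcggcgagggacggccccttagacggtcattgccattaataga
Xirp1: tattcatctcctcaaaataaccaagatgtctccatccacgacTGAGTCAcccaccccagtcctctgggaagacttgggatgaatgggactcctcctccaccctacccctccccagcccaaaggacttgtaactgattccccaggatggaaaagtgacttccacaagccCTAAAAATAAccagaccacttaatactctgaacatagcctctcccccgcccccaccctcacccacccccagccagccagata
The heat shock element was found in 11 of the 23 heat shock genes with a promoter (47.8%), in 4.61% of tested genes and in 7.02% of all promoters. Over the genes that rose in all 12 pairs by at least 1 on the log2 scale, 172 of 240 had a promoter, and 10.5% of these held an AP-1 site, 5.23% a cyclic AMP response element, 2.91% a CArG box, 7.56% a heat shock element and 2.91% a MEF2 site. Over the 683 genes with a promoter that rose in all 12 pairs by any size the shares were 7.61%, 2.78%, 2.34%, 5.56% and 2.2%. Over the 539 genes with a promoter that fell in all 12 pairs, also by any size, they were 2.97%, 3.53%, 1.3%, 4.82% and 2.97%.

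Collagens were the only pathway list in which every tested member rose. All 15 tested of 17 collagen genes passed, 13 of them in 12 of 12 pairs, 2 of them tested through the trained muscles alone, with a median log2 fold change of 1.17. Col3a1 and Col1a1, the fibrillar collagens of the interstitium, rose by 2.11 (SE 0.13) and 2.00 (SE 0.20): Col3a1 had 22.4 to 84.2 (median 60.5) in contralateral and 142 to 472 (median 242) in trained muscles, Col1a1 8.80 to 63.8 and 70.8 to 330. For both the groups did not overlap. Col4a1 of the basement membrane rose by 1.45 and Col6a1, which anchors fibers to the matrix, by 1.44. Of 33 matrix proteins and collagen-modifying enzymes 27 rose, 1 fell and 5 did not pass (median 0.94). Those that rose included the proteoglycan Bgn (2.20, SE 0.13), Timp1, an inhibitor of matrix proteases (1.79, SE 0.24) and Thbs1, thrombospondin (1.65, SE 0.11). The member that fell was P4ha1, a collagen prolyl hydroxylase, from between 22.3 and 34.8 to between 12.9 and 22.7 (-0.60, SE 0.06).

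Macrophage and fibroblast markers rose beside the matrix genes, while markers of other cells varied. The summed level of 9 fibroblast markers in the table was 168 to 362 in contralateral and 305 to 936 in trained muscles and was higher in 12 of 12 pairs, although Col1a1, Lum, Dcn and Mfap5 are on both that list and the matrix lists. The sum of 14 macrophage markers was 21.8 to 51.4 against 66.3 to 196, with 0 markers below 1 in all muscles, and all 13 tested, 1 of them through the trained muscles alone, rose in 12 of 12 pairs; Lyz2, macrophage lysozyme, had 8.81 to 18.5 in contralateral and 24 to 102 in trained muscles, and Cd68 rose by 1.41. Endothelial markers summed to 66.5 to 92.9 and 73.5 to 139, with 6 of 10 rising, none in all 12 pairs, and 2 without the 10 day or the 20 day pairs. Pericyte and smooth muscle markers gave 6 rises of 8, with 1 in all 12 pairs, and 4 rises with no block for animal. Des is on both that list and the list of skeletal fiber markers. Tendon markers gave 3 rises of 5 (1 with no block for animal or without the 2 day pairs and 0 without the 20 day pairs). None of 4 erythrocyte markers passed, and the skeletal fiber markers split into 3 rises and 3 falls of 12 (1 fall without the 20 day or the 30 day pairs). Of the lymphocyte markers only Cd4, which macrophages also carry, was tested, and it rose by 1.07, with Cd2, Cd79a and Cd8a below 1 in all muscles; of 6 neutrophil and mast cell markers in the table the 3 tested, all of mast cells and 1 of them tested through the trained muscles alone, rose, and S100a8 and Csf3r were below 1. Of 6 adipocyte markers tested, 2 of them through the trained muscles alone, 3 rose, and of 6 Schwann cell and myelin markers 1 rose. In bulk muscle more cells of a type and more RNA per cell cannot be told apart, and the part of these cells in the matrix result was not tested.

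Adhesion and cytoskeletal genes rose beside the matrix. Of 25 integrins and focal adhesion linkers 16 rose, 1 fell and 8 did not pass (median 0.42). Itga5, the fibronectin receptor subunit, had 1.85 to 2.45 in contralateral and 5.38 to 14 in trained muscles (1.48, SE 0.11). Vcl, vinculin, rose from between 13.6 and 21.8 to between 34.9 and 57.9 (1.24, SE 0.08, adjusted p = 2.96e-08) and Tln1, talin, by 0.94; in all 3 the groups did not overlap. Ptk2, focal adhesion kinase, was the member that fell, by 0.18, and the list had 0 falls without the 10, 20 or 30 day pairs. Of 19 actins and smooth muscle-type cytoskeletal genes 18 rose and the remaining one, Acta1, the actin of adult fibers, did not pass (0.19, adjusted p = 0.0992). Vim, vimentin, rose by 1.44 (SE 0.09), Nes, nestin, by 1.29, Cnn2, a calponin, by 1.28 and Lmna, lamin A/C, by 1.22; without the block for animal 14 of the 19 passed.

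In growth factor signalling the clearest change was Irs2, an adaptor of the insulin and IGF1 receptors. Its contralateral values were 2.75 to 9.07 (median 4.38) and its trained values 29.4 to 51.1 (median 37.9), with no overlap and a log2 fold change of 2.82 (SE 0.11, adjusted p = 6.71e-10). From the shortest to the longest training the effect was 2.92, 2.78, 2.86 and 2.74. On the list of 24 tested genes 9 rose, 5 fell and 10 did not pass. Igf1 itself rose by 0.57 (SE 0.09), the binding protein Igfbp6 by 1.48, Fstl1, a follistatin-like protein, by 1.06 and Tgfb1 by 0.92. Acvr1b, a receptor for activins and myostatin, fell by 0.63 (SE 0.07), and the pooled value of myostatin itself, Mstn, was -0.26 (adjusted p = 0.281). Its effect differed between lengths of training (adjusted p = 0.0348): it was 0.63 at 2 days (adjusted p = 0.0186), -0.01 at 10 days, -0.84 at 20 days (adjusted p = 0.00504) and -0.81 at 30 days (adjusted p = 0.00954). Tnfrsf12a, the receptor for the cytokine TWEAK, rose from between 5.16 and 19.3 to between 27.7 and 204 (2.95, SE 0.14).

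Among antioxidant genes and haem oxygenase more rose than fell, and the share of falls was near the 17.9% over all genes, of which 18.0% rose. Hmox1 (chr19:14508616-14515457, plus strand, Rnor_6.0), haem oxygenase, had 1.03 to 2.75 (median 1.81) in contralateral and 11.4 to 42.5 (median 18.2) in trained muscles (2.84, SE 0.12, adjusted p = 6.71e-10). Ftl1, the light chain of the iron store ferritin, went from between 46.0 and 67.1 to between 132 and 218 (1.59, SE 0.07), and Gpx1, a glutathione peroxidase, from between 94.1 and 138 to between 168 and 485 (1.35, SE 0.12). None of the 3 overlapped between arms, while Fth1, the heavy chain of ferritin, gave -0.03. Over 21 tested members 8 rose, 4 fell and 9 did not pass (median 0.04), the falls being Sod2, Sod3, Nqo1 and Keap1 by 0.18 to 0.33, and the list had 0 or 1 falls when any length of training was left out. Of 23 autophagy and lysosome genes 11 rose and 2 fell: Gpnmb, a glycoprotein of lysosomes and macrophages, rose by 3.17 (SE 0.14), Cd63 by 0.98, Ctsb by 0.84 and Ctsz by 0.80. Ulk1 and Atg12, which start and extend autophagosomes, fell by 0.50 and 0.38.

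**Figure D3:**
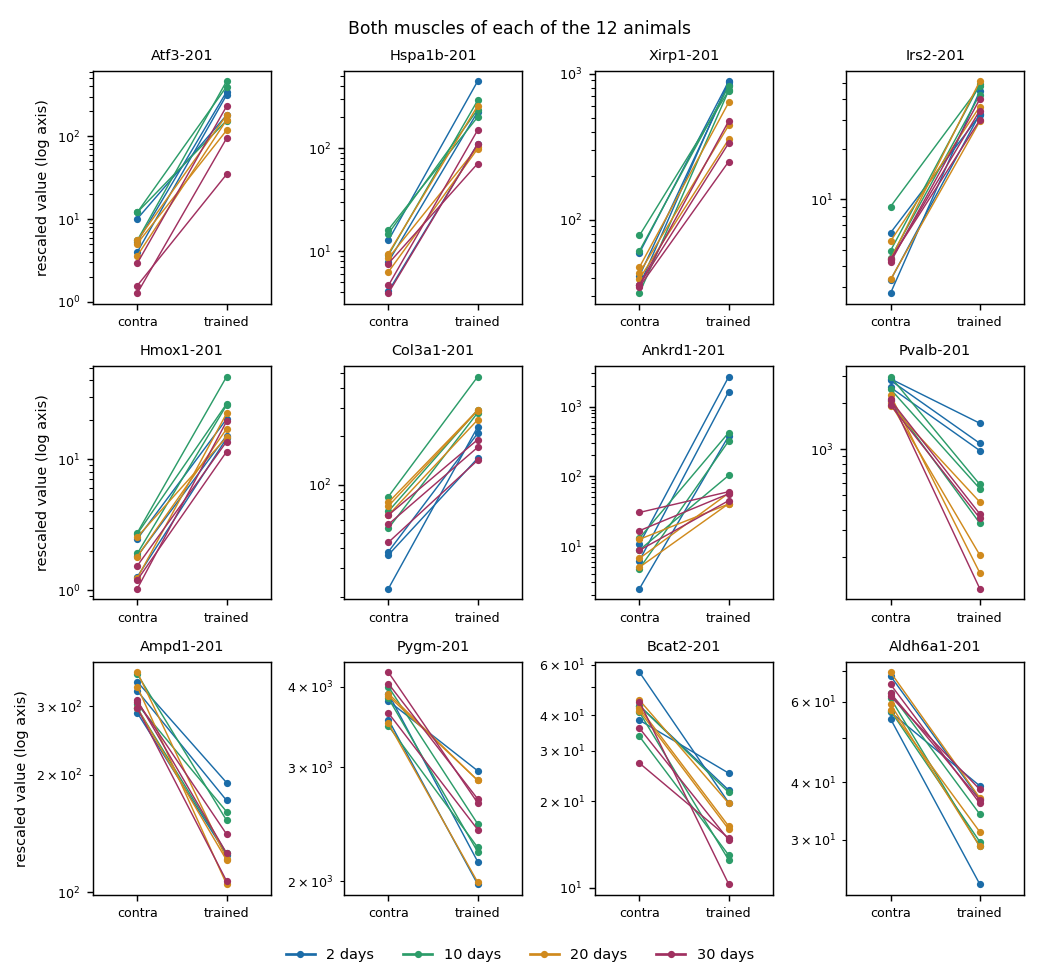
Rescaled values of 12 transcripts (log axes) in the contralateral and the trained muscle of each animal, joined by a line and coloured by days of training. In all 12 panels every line runs in the same direction; the lines of Ankrd1 are steepest at 2 days (effect 7.48) and those of Pvalb shallowest at 2 days (effect -1.22).

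Contractile and metabolic lists differed in their share of falls. Of 13 fast contractile genes tested 7 fell, 1 rose and 5 did not pass (median -0.30). Mybpc2, the fast myosin-binding protein, fell from between 1356.2 and 1820.0 to between 781 and 1430.7 (-0.63, SE 0.07). The member that rose was a single transcript annotated as Myh4, discussed with the isoforms, and the sum over that symbol fell. Of 11 slow contractile genes 7 also fell and 1 rose (median -0.41), but without the block for animal 3 fell and 1 rose. Myh7, slow myosin, fell by 0.54 (SE 0.11) and Atp2a2, the slow calcium pump, by 0.46, and Casq2, the slow calsequestrin, rose by 0.70; the list had 0 rises on the values as deposited and without the 2 day or the 10 day pairs.

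Several glycogen breakdown enzymes fell. Of 18 tested genes 8 fell, 7 of them in all 12 pairs, 2 rose (1 without the 10 day or the 30 day pairs) and 8 did not pass (median -0.10). The members that fell included the muscle phosphorylase Pygm (chr1:221756286-221771144, plus strand, Rnor_6.0), from between 3480.2 and 4213.3 (median 3857.4) to between 1977.9 and 2964.6 (median 2428.6), a log2 fold change of -0.65 (SE 0.06, adjusted p = 1.75e-06). Subunits of the kinase that activates it also fell: Phkb by 0.99 (SE 0.09) and Phkg1 by 0.98 (SE 0.09). Phkg1 had 85.7 to 120 in contralateral and 29.1 to 70.1 in trained muscles. Stbd1, which tethers glycogen to membranes, fell by 0.86. Gbe1, the branching enzyme of glycogen synthesis, went the other way, from between 23 and 40.5 to between 44.6 and 70.4 (0.85, SE 0.08), while glycogen synthase, Gys1, gave 0.13 (adjusted p = 0.313).

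Among 26 glycolytic enzymes 9 fell, 5 rose and 12 did not pass (median -0.15), with 5 falls without the 10 day pairs. The medians were -0.46, -0.26, 0.14 and -0.01 at 2, 10, 20 and 30 days, with 16, 9, 4 and 3 genes called in either direction. Hk2, the insulin-responsive hexokinase, rose from between 18.6 and 32.4 to between 53.7 and 104 (1.54, SE 0.09, adjusted p = 1.56e-08), with no overlap. Gpd1 and Gpd2, which carry reducing equivalents to mitochondria by the glycerol phosphate shuttle, fell by 1.29 (SE 0.18) and 0.79. Pfkfb3, which makes the activator of phosphofructokinase, fell by 1.02 (SE 0.15). The effect of Gpd1 was -2.01, -1.56, -0.76 and -0.85 at 2, 10, 20 and 30 days. In the limma fit it was not called at 20 days (adjusted p = 0.0731) or 30 days (adjusted p = 0.0619). The core enzymes at high level, among them Pfkm (-0.24), Aldoa (-0.09) and Pkm (-0.02), did not pass. Ampd1 (chr2:205568935-205590022, plus strand, Rnor_6.0), AMP deaminase of muscle, fell from between 288 and 366 to between 105 and 191 (-1.23, SE 0.08, adjusted p = 4.09e-08). Its promoter is shown as one of the fallen genes with a match to the MEF2 site, 161 bases before the start (chr2:193287082-193287331, plus strand).
Ampd1: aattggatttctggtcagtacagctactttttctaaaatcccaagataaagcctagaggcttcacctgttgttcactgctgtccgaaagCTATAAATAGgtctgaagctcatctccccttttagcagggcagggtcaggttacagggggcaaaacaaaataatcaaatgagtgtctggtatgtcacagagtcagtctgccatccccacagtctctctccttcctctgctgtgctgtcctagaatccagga
The MEF2 site was present in 1.53% of tested promoters.

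Enzymes that break down branched-chain amino acids had the largest share of falls among the metabolic lists. Of 22 tested members 16 fell, 0 rose and 6 did not pass, with a median of -0.37 and 8 falls in all 12 pairs. Without the 2 day or the 10 day pairs 12 fell. The medians shrank from -0.56 and -0.52 at 2 and 10 days to -0.22 and -0.16 at 20 and 30 days, with 15, 10, 6 and 4 genes called. Bcat2, the mitochondrial aminotransferase of the first step, had 27.2 to 56.4 (median 41.8) in contralateral and 10.3 to 25.1 (median 16.2) in trained muscles (-1.23, SE 0.10, adjusted p = 6.36e-07). Dbt, a core subunit of the ketoacid dehydrogenase, fell from between 16.5 and 21 to between 7.93 and 13.4 (-0.73, SE 0.07), and its partners Bckdha and Bckdhb by 0.37 and 0.31. Acadsb, of the next step for isoleucine, fell by 1.03 and Aldh6a1, at the end of the valine route, by 0.87 (SE 0.06, adjusted p = 1.11e-07), the latter from between 55.0 and 69.5 to between 24 and 39.3. Bcat2, Dbt and Aldh6a1 did not overlap between arms. The inhibitory kinase Bckdk gave 0.01 (adjusted p = 0.954).

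Among the other metabolic lists, complex I subunits and mitochondrially encoded mRNAs had few pooled calls. Over all genes 18.0% rose and 17.9% fell. Of 25 fatty acid genes 6 fell and 1 rose (4 and 0 without the block for animal), and 2 fell without the 2 day or the 10 day pairs and 10 without the 30 day pairs. The medians of this list were -0.62, -0.37, 0.06 and 0.11 at 2, 10, 20 and 30 days, with 18, 3, 0 and 0 genes called. Most calls at single lengths were thus at 2 days. The test of a difference between lengths called 0 members of this list, so a change limited to early training was not shown. The pooled falls were led by the mitochondrial uncoupling protein Ucp3 (-0.78, SE 0.17) and Echs1 (-0.65). None of 35 nuclear-encoded complex I subunits passed and 1 of 13 mitochondrially encoded mRNAs did, Mt-nd6, which lies on the other strand from the rest (-0.32, adjusted p = 0.037). The list had 0 falls with no block for animal, without animal 267 and without the 2, 10 or 20 day pairs, and 3 without the 30 day pairs. The medians of the complex I list ran from -0.38 at 2 days to 0.34 at 20 days and 0.28 at 30 days, and without the 2 day pairs 4 of its members rose and without the 30 day pairs 1 fell. Of 17 regulators of mitochondrial genes 2 rose (1 with no block for animal) and 6 fell. Ppargc1a, the coactivator PGC-1alpha, rose from between 1.61 and 4.24 to between 4.12 and 20.2 (1.21, SE 0.15, adjusted p = 1.92e-05). Those that fell included Polg, the mitochondrial DNA polymerase (-0.51), Tfam (-0.18), Ppara (-0.54) and Lpin1 (-0.57).

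Lists of protein synthesis and turnover differed in their pooled calls, beside 18.0% of all genes that rose and 17.9% that fell. Calls were few among ribosomal proteins and proteasome subunits. Of 37 ribosomal proteins 3 rose (1 without the 20 day pairs) and 0 fell (median 0.08), with Rpl3 highest at 1.11 (SE 0.21). Of 27 ribosome biogenesis genes 3 rose (1 without the 2 day or the 30 day pairs) and 5 fell (1 without the 10 day pairs). Of 25 translation factors 3 rose and 6 fell (2 without the 10 day and 1 without the 20 day pairs), including Eef1a1 up by 0.79 and Eef2k, the kinase that slows elongation, down by 0.54. Of 30 proteasome subunits 2 rose and 0 fell, with 0 rises without the 2 day or the 20 day pairs and 1 under the other alternatives but the pseudocount, which gave 2. Among 14 atrophy ligases and FoxO factors Trim63, the MuRF1 ligase, rose from between 67.0 and 115 to between 136 and 299 (0.97, SE 0.09, adjusted p = 1.35e-06), Fbxo32, the other classical atrophy ligase, gave 0.13 (adjusted p = 0.421), and Foxo4 and Foxo1 fell by 0.61 and 0.48, with 5 falls in the list and 3 without the 10 day pairs. Myc, a factor that drives ribosome synthesis, had 0.386 to 2.10 in contralateral and 3.23 to 17.4 in trained muscles (2.16, SE 0.15).

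Of 23 genes of calcineurin, NFAT and Mef2 signalling 2 rose (1 on the values as deposited and without the 10 day pairs), 7 fell and 14 did not pass (median -0.18). Rcan1, which inhibits calcineurin and is one of its targets, rose from between 21.9 and 47.5 to between 78.0 and 326 (2.43, SE 0.12, adjusted p = 4.43e-09). Ppp3cb, a catalytic subunit of calcineurin, fell by 0.70 (SE 0.08) and Camk2a, a calcium-activated kinase, by 0.80 (SE 0.09). Among 14 myogenic and satellite cell genes, 2 of them tested through the trained muscles alone, 7 rose and 0 fell, including Myh8, neonatal myosin (0.78), and Myf5 (0.40), both low; Myod1 gave -0.25 (adjusted p = 0.177). At the synapse 4 genes rose (2 without the 2 day or the 10 day pairs) and 1 fell of 11, the fall being Ache, acetylcholinesterase (-0.84, SE 0.11).

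Clock genes moved singly and not as a list. Of 19 members 4 rose and 4 fell (3 and 1 without the block for animal). Ciart, a repressor of the clock activators, rose from between 0 and 4.93 to between 7.04 and 24.4 (3.00, SE 0.29, adjusted p = 2.30e-06), with no overlap, while Nr1d1 and Hlf fell by 0.66 and 0.64, and Arntl, the core activator, gave -0.17 (adjusted p = 0.494). The polyamine list had 2 rises and 2 falls of 10: Sat1, which acetylates polyamines for removal, rose by 1.54 (SE 0.11), Azin1 by 0.34, and Amd1 and Smox fell by 0.57 and 0.61, while Odc1, the entry enzyme, gave 0.04 (adjusted p = 0.694).

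**Figure D4:**
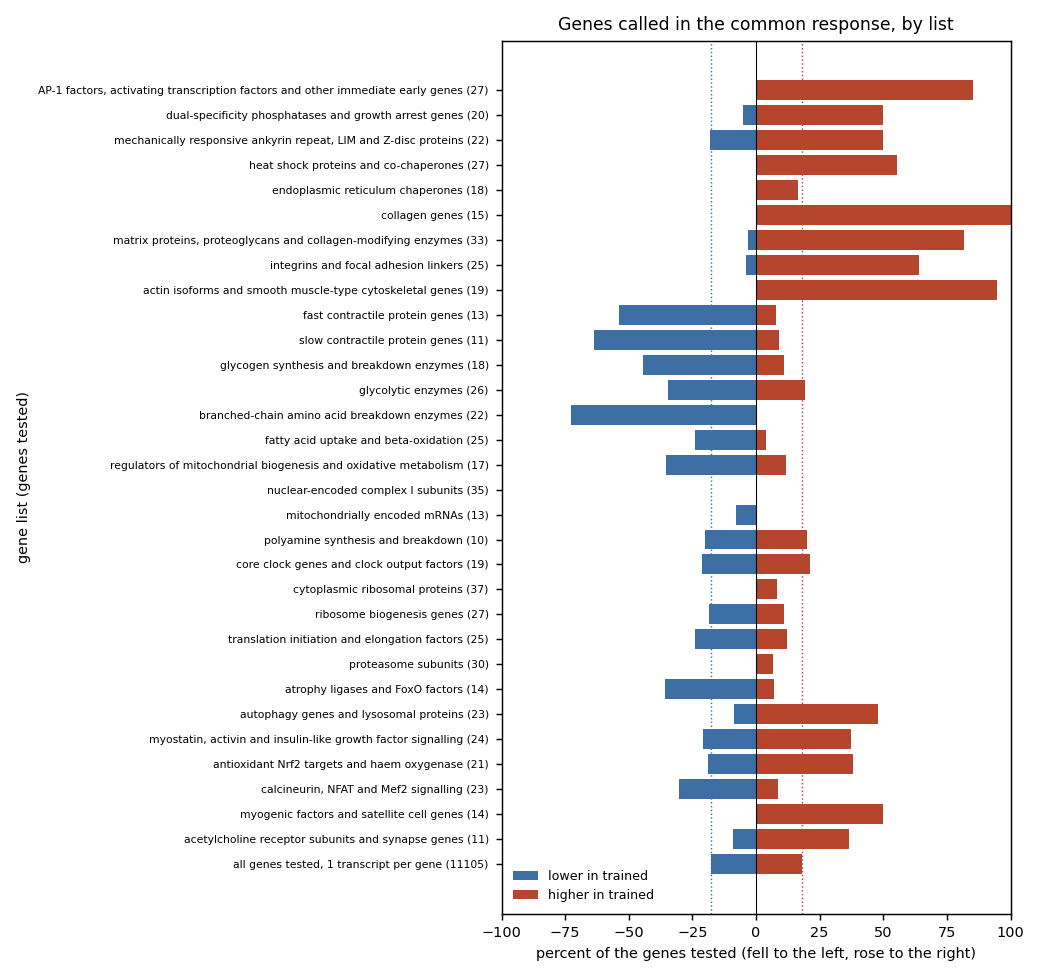
Percent of the tested genes of each of 31 lists that rose (red, right) or fell (blue, left) in the common response, with 1 transcript per gene and the number tested in brackets; dotted lines mark the shares over all 11105 genes, 18.0% and 17.9%. Collagens, cytoskeletal genes and immediate early genes reach furthest to the right and branched-chain amino acid enzymes furthest to the left.

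The 10 genes singled out by the study as shared across models of resistance exercise were, with the pairs pooled, 9 that rose in all 12 pairs and 1, Amd1, that fell in all 12. Besides those given above, Ehd4, which acts in endocytosis, rose by 1.05 (SE 0.11) and Lox, which cross-links collagen, by 1.09 (SE 0.15, 0.588 to 1.93 in contralateral and 1.68 to 6.40 in trained muscles). These genes were chosen in part on these samples, so their direction is no independent evidence.

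Some genes changed their transcript mixture more than their sum. Of 1855 genes with more than 1 transcript tested, 282 had more than 1 transcript called and 22 had transcripts called in both directions, 4 of them with 12 of 12 pairs each way. The genes named next were chosen after their values were seen, and transcripts of a gene share exons, so their split is an estimate of the authors' quantification. Rtn4, which encodes the Nogo proteins, had Rtn4-201 up from a mean of 6.35 to 46.1 (2.58, SE 0.24, 12 of 12 pairs) and Rtn4-203 down from 212 to 149 (-0.50, SE 0.08, 12 of 12 pairs), with a gene sum of -0.28 (adjusted p = 7.45e-04). Tsc22d1, a leucine zipper gene, had Tsc22d1-201 up by 0.84 and Tsc22d1-202 down by 0.76, each in 12 of 12 pairs, and a sum that rose by 0.52. Ssr1, which encodes a subunit of the translocon-associated complex, had Ssr1-201 up by 1.02 and Ssr1-202 down by 0.62, also in 12 of 12 pairs each. Tnnt3-206 fell by 3.10 while the sum of Tnnt3 fell by 0.39 (adjusted p = 7.72e-04). For the entries annotated as Myh4, the symbol of fast myosin IIB, Myh4-203 and Myh4-204 fell by 4.48 and 4.52. Myh4-202 rose by 0.93 in 12 of 12 pairs, and the sum over the entries fell by 0.39. Myh4-203 is annotated at chr10:53778662-53801604 and Myh4-204 at chr10:53781239-53848348, a much longer stretch. Whether all entries under this symbol belong to the IIB gene was not tested, so neither the rise nor the sum can be read as IIB alone. The falls differed between lengths of training (adjusted p = 0.0212 for each): Myh4-203 was at -0.73 at 2 days (adjusted p = 0.396) and -6.26 at 30 days, and Myh4-204 at -0.82 (adjusted p = 0.323) and -6.34.

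The size of the shared changes was compared between lengths of training. Among the 952 transcripts that rose in all pairs the median log2 fold change was 0.75, 0.82, 0.71 and 0.58 after 2, 10, 20 and 30 days, and for 447 of them the smallest of the 4 effects was that at 30 days. Among the 737 that fell in all pairs the medians were -0.47, -0.48, -0.46 and -0.43, and the smallest effect was at 30 days for 262. Tested one time point at a time in the same fit, 2058 transcripts (15.3%) were called after 2 days, 1876 (13.9%) after 10, 1559 (11.6%) after 20 and 1041 (7.74%) after 30. Of the 4472 pooled calls, 463 were called at each of the 4 times and 1739 at none of them. A further 753 transcripts were called at some time and not in the pool. The sign of the effect was the same at all 4 times for 4098 of the pooled calls, which is 91.6%, against 42.2% over all tested; the call itself favours pairs of the same sign, so this is a description.

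The most even changes included early genes and the ferritin light chain. Among transcripts with a mean of at least 50 and a rise of at least 1, the ratio of the largest to the smallest of the 4 effects was 1.11 for Atf3 (5.26, 4.89, 4.72 and 5.02 at 2, 10, 20 and 30 days), 1.14 for Ftl1, 1.18 for Btg2, an antiproliferative early gene, 1.20 for Hspa1b, 1.21 for Egr1 and 1.22 for Mrpl45, a protein of the mitochondrial ribosome. Mrpl45 rose from between 25.3 and 32.2 to between 51.9 and 70.4 (1.05, SE 0.05), and its 12 pairs lay between 0.86 and 1.19. Among falls of at least 0.5 the most even were Foxo4 (ratio 1.13), Mybpc2 (1.15), Ube2d1, a ubiquitin-conjugating enzyme (1.20), Kif1c, a kinesin (1.24), Pygm (1.25) and Aldh6a1 (1.25). Pygm gave -0.69, -0.71, -0.57 and -0.62 over the 4 times.

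A test of whether the effect differed between lengths of training called 29 transcripts (0.216% of those tested), 8 of them among the 1689 with 12 of 12 pairs, and 1829 passed an unadjusted threshold of 0.05. This count moved between 0 (without animal 258) and 143 (without animal 257) when animals were left out in turn. Ankrd1 (chr1:254726969-254735549, minus strand, Rnor_6.0), a stretch-induced ankyrin repeat protein, was among them (adjusted p = 0.00935): its effect was 7.48, 4.72, 2.44 and 1.63 after 2, 10, 20 and 30 days, with contralateral values of 2.45 to 30.3 and trained values of 40.0 to 2670.3. It was higher in 12 of 12 pairs and the arms did not overlap, so it belongs to the shared response in direction and not in size. Pdlim3, a Z-disc LIM protein, went from 2.14 at 2 days to 0.27 at 30 days (adjusted p = 0.0326) and also rose in 12 of 12 pairs. Igfbp5, a binding protein of insulin-like growth factors, went from -1.41 to -0.11 (adjusted p = 0.0212). The effect of Tubb4b, a tubulin, changed sign over time, from 1.13 to -0.71 (adjusted p = 0.0162), as did that of Ca3, carbonic anhydrase of slow fibers, from -0.55 at 2 days to 1.24 at 10 days (adjusted p = 0.0326).

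Whether a change called at 3 lengths of training was present at the length left out was read in pairs that took no part in the call. Of 3886 transcripts called without the 2 day pairs, 64.8% had all 3 pairs at 2 days in the same direction, against 39.6% of all tested transcripts whose direction was set in the same way. At 10 days the share was 77.8% of 3227 (41.3% of all tested), at 20 days 74.6% of 3413 (39.7%) and at 30 days 62.5% of 3907 (34.7%). All 3 left-out pairs ran against the call in 4.61%, 0.62%, 0.791% and 2.15%. On the values as deposited the share at 30 days was 52.6%, against 28.4% of all tested.

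**Figure D5:**
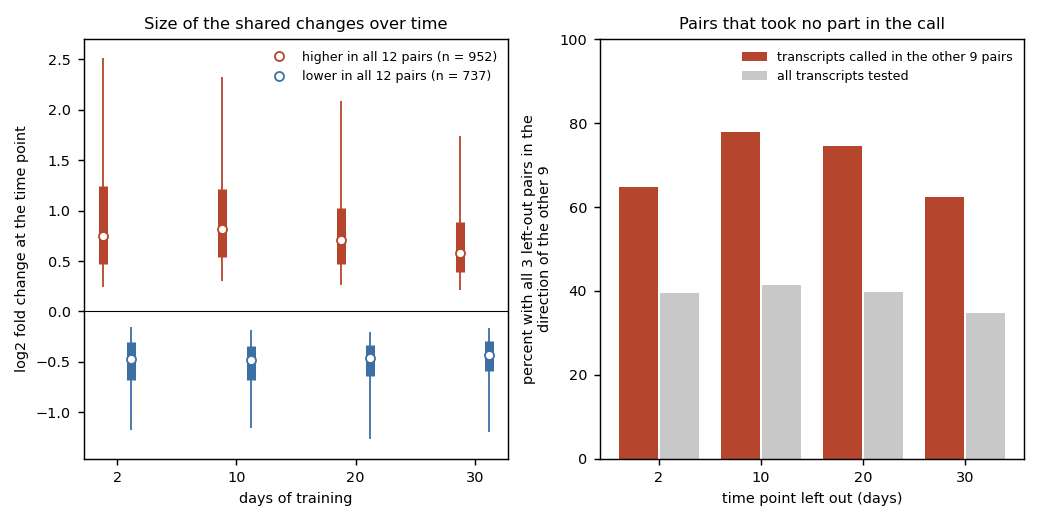
Left, log2 fold change at each length of training for the 952 transcripts that rose and the 737 that fell in all 12 pairs (point, median; thick bar, 25th to 75th percentile; thin bar, 5th to 95th percentile). Right, percent of transcripts whose 3 left-out pairs all ran in the direction set by the other 9 pairs, for transcripts called in those 9 pairs (red) and for all tested (grey); the red bars stand at 64.8%, 77.8%, 74.6% and 62.5%.

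Single animals differed in how closely they followed the others. Of the transcripts called from the other 11 pairs, the left-out animal had the same direction in 80.7% (animal 275, 30 days) to 92.3% (animal 262, 10 days), against 64.4% to 73.1% over all tested. The correlation of an animal's log2 ratios with the mean of the other 11 was 0.52 to 0.71, taken over transcripts, which do not count as independent replicates. Splitting the sum of squares of the 12 log2 ratios, the shared effect held a median of 22.7% over all tested transcripts, 65.4% over the called and 83% over those with 12 of 12 pairs in the same direction, the last 2 being raised by the choice itself. Differences between lengths of training held 19.5%, 9.61% and 5.19%, and the spread between animals of the same length 45.3%, 19.9% and 9.97%.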

How the data were processed

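RNA of 12 trained and 12 contralateral muscles was analysed. The authors enriched poly-A RNA, made directional libraries, trimmed reads, aligned them with STAR in Partek Flow to Rnor_6.0 (rn6) and quantified Ensembl transcripts; the submitters' processing notes also name DESeq2. The values they deposited are TPM-type (length-scaled, with equal totals), although the table is named as normalized counts, so no count model was run, and the depth per sample and its precision are unknown. Gene-level tables and the authors' own comparisons (fold changes and p-values) were not used, and 0 columns were left unmapped.

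Samples were rescaled by the median of ratios over the 16230 transcripts above 0 in all samples, and transcripts reaching 1 in 3 or more muscles were kept. The fit used limma 3.58.1 (R 4.3.3) on log2(value + 1), with animal as a block (11 residual degrees of freedom) and Benjamini-Hochberg adjustment, threshold 0.05. Effects per length of training and their F test came from a fit with arm within time (8 residual degrees of freedom). The fit was tested on simulated data. Of 276 pairs of libraries 0 were identical, and 161 transcripts share their values with another transcript. The pairing comes from the animal numbers in the labels; as a check, deviations from the group means had a median correlation of 0.133 within animals (0.0174 to 0.27, over 0.1 in 7 of 12 pairs) and of -0.0701 between animals of a group.

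Members, lists and rules were chosen with earlier results of these data known. Named were, with 1 transcript per gene and a mean of 50 or more in one of the arms, the 15 largest rises and falls with 12 of 12 pairs in the same direction, the 6 most even of each, the 6 most time-dependent, up to 4 called members of each list with the members its name depends on, and 10 genes the study singled out. A few genes that these rules name are not reported here. A list takes the transcript with the highest mean. Alternatives were no block, values as deposited, pseudocount 0.1, no filter, a mean of at least 10, the mean of 4 effects, an intensity trend, each animal or length left out, a threshold of 0.01 and sums per gene; the sums for single genes were added after seeing the data. Promoters are RefSeq sequences on GRCr8, matched by symbol. Tables and plots used Python 3.11.15, pandas 2.3.3 and matplotlib 3.10.9.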

Additional observations from a re-analysis of the deposited data

Results flagged for a closer look

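The training effect differed between the 4 lengths of training for 29 transcripts (F test of the difference in limma, adjusted p below 0.05), and 9 of them are named above: Ankrd1-201, Pdlim3-201, Igfbp5-201, Tubb4b-201, Ca3-201, Myh4-203 and Myh4-204 (adjusted p = 0.0212 each), Mstn-201 (adjusted p = 0.0348) and Dusp2-201 (adjusted p = 0.0448). For Ankrd1-201 (adjusted p = 0.00935), Pdlim3-201 (adjusted p = 0.0326) and Igfbp5-201 (adjusted p = 0.0212) the sign stayed the same and the size fell with the length of training. For Tubb4b-201 (adjusted p = 0.0162), Ca3-201 (adjusted p = 0.0326) and Mstn-201 the sign changed, so their pooled values of 0.03, 0.55 and -0.26 describe no single length of training. No cause was tested.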

How the results depend on the processing

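Pooled calls numbered 4472. They were 4125 with no block for animal (3948 shared with the paired fit), 3790 on the values as deposited, 2944 at a threshold of 0.01 and 1708 of 3916 with a mean of at least 10, and 3977 to 4348 with an animal left out. The share that was higher, 49.7%, was 53% as deposited, 53.2% without a filter, 35.9% with a mean of at least 10, and 52.5%, 51.7%, 53.1% and 51.5% without the 2, 10, 20 and 30 day pairs. With animals left out it was 49.5% to 51%. Time-dependent calls (29) were 87 with no block, 8 at a pseudocount of 0.1, 190 with a mean of at least 10, 83 with an intensity trend, and 0 to 143 with an animal left out. As deposited, calls at 30 days fell from 1041 to 562. Calls of the other lengths seen in all 3 left-out pairs were then 76.8% at 20 days and 52.6% at 30 days. Over all tested transcripts these shares were 39.6% and 28.4%. Of 4324 repeats of single-transcript values (181 transcripts), 4293 kept direction and side of the threshold, 19 lost and 4 gained the call, and 8 reversed: Tubb4b, near 0, gave -0.34 without the 2 day pairs, -0.06 without the 10 day pairs and -0.09 to 0.12 with an animal left out, and Myh4-202 gave -0.39 as a gene sum. The causes were not tested. Depth is unknown, so its limits cannot be given.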
